A study of Mus musculus with 12 samples.

Results

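The 8 genes described here encode cyclic nucleotide phosphodiesterases, the enzymes that hydrolyse cAMP, cGMP or both: *Pde3b*, *Pde2a*, *Pde1b*, *Pde4a*, *Pde4b*, *Pde4d*, *Pde7a* and *Pde8a*. They were taken by symbol from the deposited tables of raw read counts, and all 8 had a row at both times, out of 12837 genes that did. The cells were splenic follicular B cells, CD21/35- CD23+, sorted from adult male mice that were Gpr174+/Y (WT) or Gpr174-/Y (KO). The KO allele is a knock-in, carried in every cell of the animal, in which tdTomato takes the place of the only exon that codes for GPR174. Cells were frozen once sorted (0 h) or were first kept for 4 h in serum-containing RPMI to which no stimulus was added. Each of the 4 combinations of genotype and time has 3 libraries. The study used 3 mice of each genotype, and the labels number the libraries of a group 1 to 3 without saying whether a number marks the same mouse at both times.

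Receptors coupled to Gαs, GPR174 among them, switch on adenylyl cyclase, and the cAMP that is made acts through protein kinase A (PKA), the EPAC exchange factors and CREB family transcription factors. Phosphodiesterases end that signal. PDE4 long forms and PDE3B are activated when PKA phosphorylates them, and several phosphodiesterase genes are known to be induced by cAMP, so the family is a textbook case of negative feedback in lymphocytes and other cells. PDE3B, PDE2A and PDE1B also act on cGMP.

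Library totals ran from 6098941 to 11618787 counts. *Gpr174* was at 149.5 to 156.9 CPM (counts scaled to a common library size, with TMM factors) in WT and 73.4 to 76.7 CPM in KO at 0 h, and at 152.6 to 169.1 CPM in WT and 105 to 118 CPM in KO at 4 h. The KO libraries thus lay below the WT libraries at both times, and the count covers the whole gene, untranslated exons included. The follicular B cell markers summed to at least 6169 CPM in every library (8 of 10 markers had a row), T cell markers to at most 20.05 CPM and macrophage or monocyte markers to at most 94.9 CPM. The defining macrophage gene *Adgre1*, listed under its older symbol *Emr1*, had group means of 3.17 to 7.52 CPM. Neutrophil and erythroid markers reached 121 and 122 CPM in single KO 0 h libraries, and 116 and 99.3 CPM in KO 4 h libraries. In WT they were at most 56.6 and 66.8 CPM, and the ranges of the genotypes overlapped at both times.

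After 4 h of culture, *Pde4d*, *Pde3b*, *Pde7b*, *Pde8a*, *Pde4b* and *Pde2a* were higher in WT than in KO cells, whereas *Pde7a* was higher in KO cells. The calls for *Pde2a* and *Pde7a* were lost in several refits, which are given with each gene below. *Pde7b* is not among the 8 and is described with the rest of the family. Freshly sorted cells showed no called difference in any of the 8. Genotype differences are given as log2 of WT over KO, and culture changes as log2 of 4 h over 0 h. A gene was called at a Benjamini-Hochberg adjusted p under 0.05 over all genes tested, in edgeR's quasi-likelihood test.

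At 0 h, 0 of the 8 genes were called, where 0.987% of the 11345 genes tested were. At an unadjusted p under 0.05 there were 2 (*Pde3b* and *Pde7a*), and DESeq2 called 0. At 4 h, 5 of the 8 were called higher in WT, where 5.22% of the 11123 genes tested were, and 1 was called higher in KO, where 5.67% were. The libraries of the genotypes were fully separated in 1 of the 8 at 0 h (18.1% of all genes) and in 7 of the 8 at 4 h (27.9%). The median log2 fold change of the 8 was 0.10 at 0 h and 0.48 at 4 h, and the median over all genes tested was 0.00 at both times. Follicular B cell markers moved with genotype at 4 h too: 5 of 8 were lower in WT, and their sum ran from 6169 to 6423 CPM in WT against 7670 to 7834 CPM in KO. The marginal zone B cell list summed to 252 to 299 CPM in WT and 395 to 442 CPM in KO, with 2 of 6 markers lower in WT. That gap lay mostly in 1 gene, *Cr2*, with 4 h means of 164.5 CPM in WT and 310.2 CPM in KO. *Cd1d1*, *Cd9* and *Myof* also had lower means in WT. *Dtx1* (77.8 CPM in WT and 66.9 CPM in KO) and *S1pr3* (2.99 and 2.52 CPM) went the other way. The part of these markers in the phosphodiesterase differences was not tested, and in bulk samples fewer cells of a type and less RNA per cell cannot be told apart.

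In culture, 5 of the 8 rose in WT cells, where 15.1% of 11572 genes rose, and 2 fell, where 18.0% fell. In KO cells 4 rose against 10.3% of all genes, and 0 fell against 13.0%, with 1 (*Pde4a*) lower at an unadjusted p under 0.05 and 0 called lower by DESeq2. The median log2 fold change of the 8 was 1.36 in WT and 0.44 in KO, and that of all genes tested was 0.00 in both. The interaction, which tests whether the culture change differed between genotypes, was called with the larger change in WT for 3 of the 8 (2.45% of all genes) and with the lower value in WT for 1 (3.94%). The 9 macrophage or monocyte markers with a row at both times summed to 72.8 to 81.2 CPM in 0 h libraries and to 30.1 to 51.8 CPM in 4 h libraries, where the WT and KO ranges overlapped. The follicular B cell list summed to 8317 to 8713 CPM in WT and 8021 to 8422 CPM in KO at 0 h. After culture 5 of its 8 markers were lower in each genotype, and 1 in WT and 2 in KO were higher. At 0 h the marginal zone list summed to 1176 to 1254 CPM in WT and 1033 to 1222 CPM in KO. In each genotype 5 of its 6 markers fell in culture and 1 rose. *Cr2* held most of the 0 h sum (means 1031 and 931 CPM). The marker CPM were TMM-scaled within each time, so 0 h and 4 h values do not share 1 scaling. The marker calls for culture come from the fit of all 12 libraries. The part of these marker lists in the culture changes was not tested. The times were deposited as separate tables. The study names 1 library kit for the experiment, and the sources used here do not say whether the libraries of both times were made in 1 batch.

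**Figure D1:**
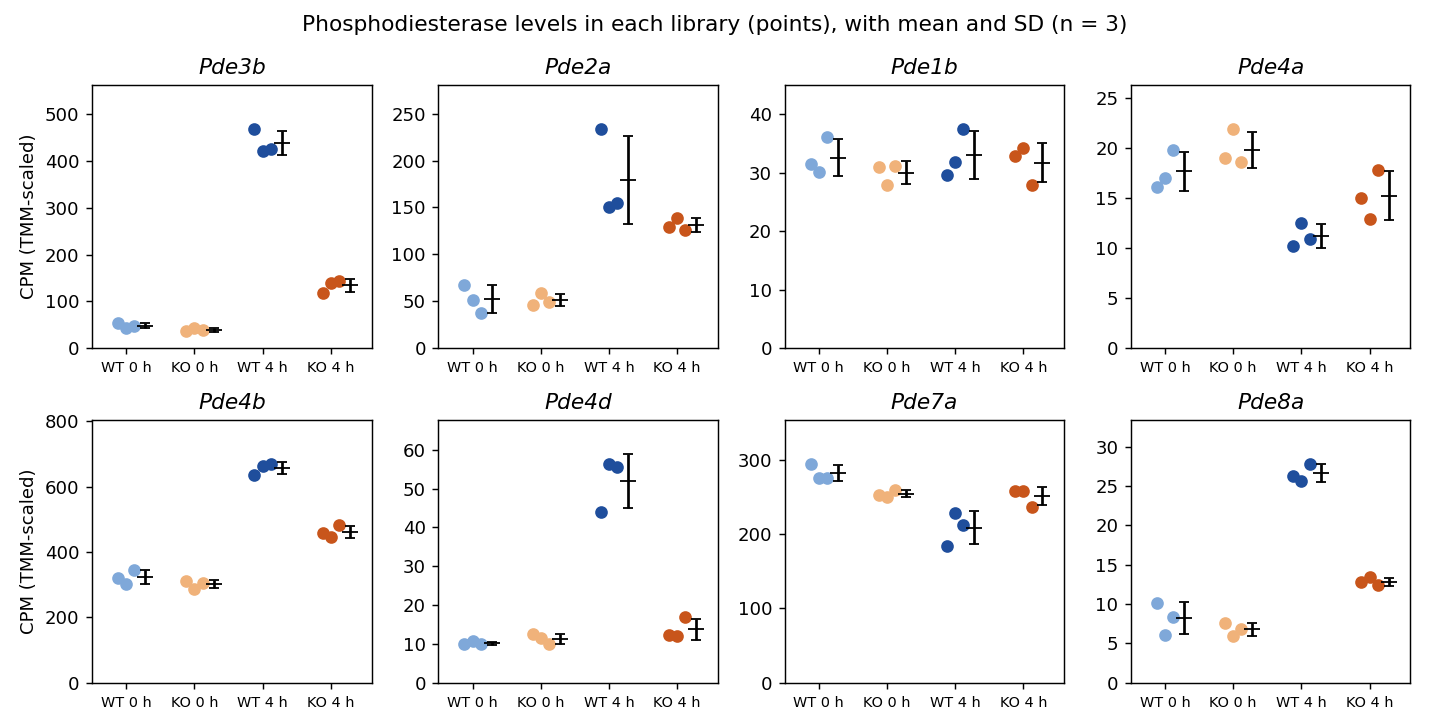
Each panel plots 1 gene's level in CPM on TMM-scaled library sizes (vertical axis from 0) in each of the 12 libraries (coloured points), by group, with the group mean and SD (n = 3) in black. *Pde3b*, *Pde4d*, *Pde4b* and *Pde8a* stand highest in the WT 4 h libraries, *Pde7a* is lowest there, and *Pde1b* stays between 27.8 and 37.5 CPM throughout.

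Promoter sequence is shown because several of the genes moved together and the cAMP response element (CRE) is the best known DNA element of this pathway. RefSeq promoter windows on GRCm38.p6, from 250 bases before to 50 after a transcript start, were found for 6 of the 8 genes, 17 windows in all; *Pde3b* and *Pde7a* had no entry. The full element TGACGTCA was in 0 of the 17 windows and in 1.79% of all 32851 windows of this length. The 5-base half-site (TGACG, or CGTCA on the other strand; the full element contains both) was in 4 of the 17 windows, in *Pde4a*, *Pde4b*, *Pde8a* and *Pde2a*, and in 20.8% of all windows. The 150 bases before the start are printed 5′ to 3′ on the gene's strand, with the half-site in capitals, for the 3 windows that hold it upstream and for the single *Pde4d* window, which holds none. The coordinates are chr4:102421405-102421554 for *Pde4b* (first of 4 starts), chr7:81213115-81213264 for *Pde8a*, chr9:21183951-21184100 for *Pde4a* (second of 3 starts) and chr13:108654027-108654176 for *Pde4d*, all on the plus strand.
Pde4b: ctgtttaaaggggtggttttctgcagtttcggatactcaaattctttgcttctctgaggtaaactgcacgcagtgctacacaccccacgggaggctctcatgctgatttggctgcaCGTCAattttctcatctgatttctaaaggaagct
Pde8a: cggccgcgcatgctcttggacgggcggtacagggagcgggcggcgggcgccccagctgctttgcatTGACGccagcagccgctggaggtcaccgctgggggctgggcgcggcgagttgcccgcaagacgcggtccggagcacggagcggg
Pde4a: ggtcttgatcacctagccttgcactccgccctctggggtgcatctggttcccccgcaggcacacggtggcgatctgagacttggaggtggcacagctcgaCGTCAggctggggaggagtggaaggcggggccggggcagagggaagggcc
Pde4d: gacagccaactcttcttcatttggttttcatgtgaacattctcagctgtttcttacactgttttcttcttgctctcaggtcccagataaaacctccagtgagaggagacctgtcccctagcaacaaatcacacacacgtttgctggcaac
The half-site begins 34 bases before the start in *Pde4b*, 84 before it in *Pde8a* and 50 before it in *Pde4a*. Of the genes with a half-site, *Pde4b*, *Pde8a* and *Pde2a* rose in culture and *Pde4a* fell in WT cells. *Pde4d*, without it in its single window, rose in WT cells. The part of the half-site in these changes was not tested. The tables give 1 count per gene, so which start was used was not measured. The windows do not cover every annotated start. The *Pde4d* gene model has 20 transcripts and begins at 108449948, well before its single window (from 108653927). That of *Pde4b* has 13 and begins at 102087543, before its first window (from 102421305). Starts without a window were not searched for the half-site.

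*Pde3b* (chromosome 7, 114415281 to 114539251, plus strand; GENCODE gene model on GRCm38) encodes the insulin-regulated phosphodiesterase whose cAMP hydrolysis is inhibited by cGMP. It was at 53.2, 42.5 and 48.1 CPM in WT 0 h replicates 1 to 3 and at 35.8, 44.0 and 37.7 CPM in KO 0 h. At 4 h it was at 469, 422 and 427 CPM in WT and at 118, 140.1 and 144 CPM in KO. The genotypes overlapped at 0 h and were far apart at 4 h, where the lowest WT library held more than the highest KO library by a wide margin. The genotype difference was 0.29 ± 0.11 (log2 ± SE) at 0 h, with an edgeR adjusted p of 0.255, and 1.71 ± 0.08 at 4 h, with an edgeR adjusted p of 8.96e-10. That is 3.27-fold at 4 h (95% interval 2.92 to 3.66). The gene rose in culture in both genotypes, 9.16-fold (8.06 to 10.4) in WT and 3.44-fold (3.00 to 3.94) in KO. The WT rise exceeded that in KO by 1.41 ± 0.13 on the log2 scale (edgeR adjusted p 2.08e-07). Among all genes tested, it ranked 35 of 11123 by fold change in the genotype contrast at 4 h and 14 of 11572 in WT culture.

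*Pde2a* encodes a dual phosphodiesterase whose activity is stimulated by cGMP. It was at 66.9, 51.8 and 37.4 CPM in WT 0 h and at 45.9, 58.7 and 49.0 CPM in KO 0 h. In cultured cells it was at 234, 151 and 155 CPM in WT and at 129, 139 and 125 CPM in KO. The 0 h groups overlapped fully. At 4 h the groups did not overlap, but WT replicate 1 stood well above the other 2 WT libraries, which were close to KO. It rose in culture in WT (log2 1.79 ± 0.16, edgeR adjusted p 1.3e-08) and in KO (1.36 ± 0.17, 2.36e-06), and the difference between these changes, 0.43 ± 0.23, was not called (edgeR adjusted p 0.354). The genotype difference was 0.01 ± 0.16 at 0 h (edgeR adjusted p 0.988) and 0.45 ± 0.13 at 4 h (0.0311). The call at 4 h was lost without WT replicate 1 (0.21, edgeR adjusted p 0.059), without KO replicate 1, 2 or 3 (0.42 to 0.49, edgeR adjusted p 0.0675 to 0.12), in DESeq2 (adjusted p 0.241) and with all 4 groups in the fit (edgeR adjusted p 0.061). *Pde2a* (chromosome 7, 101421691 to 101512827) shares 64.3% of its exonic bases with the same-strand gene model *Gm45837*, so its count is uncertain to that extent.

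*Pde1b* (chromosome 15, 103503034 to 103530052) encodes a dual phosphodiesterase activated by Ca2+ and calmodulin. Its mean at 0 h was 32.6 ± 3.15 CPM in WT and 30.1 ± 1.91 CPM in KO, and at 4 h 33.05 ± 4.05 and 31.7 ± 3.32 CPM (SD, n = 3). All 4 groups overlapped. The genotype difference was 0.11 (95% interval -0.12 to 0.34) at 0 h and 0.07 (-0.18 to 0.31) at 4 h on the log2 scale. Culture changed it by 0.03 (-0.21 to 0.26) in WT cells and by 0.08 (-0.16 to 0.32) in KO cells. None of the 5 comparisons was called, with edgeR adjusted p-values of 0.679 to 0.915, and each interval that is given here leaves out a change of 1.5-fold in either direction.

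The PDE4 genes encode the cAMP-specific enzymes that rolipram inhibits, and those for PDE4A, PDE4B and PDE4D moved in different ways. *Pde4d* (chromosome 13, 108449948 to 109953461) was at 9.91, 10.6 and 9.91 CPM in WT 0 h and at 12.5, 11.6 and 10.04 CPM in KO 0 h. Following culture it was at 44.1, 56.5 and 55.5 CPM in WT and at 12.2, 12.1 and 17.0 CPM in KO. Every WT 4 h library stood above all others, and KO 4 h libraries overlapped the KO 0 h libraries. The genotype difference was -0.17 ± 0.17 (log2) at 0 h (edgeR adjusted p 0.74) and 1.93 ± 0.14 at 4 h (1.59e-07), or 3.80-fold (95% interval 3.09 to 4.67). *Pde4d* rose 5.13-fold (4.17 to 6.30) in WT culture. In KO culture its change was 1.21-fold (0.956 to 1.52) and was not called (edgeR adjusted p 0.249). The difference between these changes was 2.09 ± 0.22 on the log2 scale (edgeR adjusted p 1.14e-06), the largest interaction among the 8 genes and rank 43 of 11572 by value.

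*Pde4b* (chromosome 4, 102087543 to 102607259) encodes the PDE4 enzyme best known from leukocytes. It was at 321, 303 and 346 CPM in WT 0 h and at 312, 288 and 306 CPM in KO 0 h. At 4 h it was at 636, 662 and 671 CPM in WT and at 458, 446 and 482 CPM in KO. The genotypes overlapped at 0 h and separated at 4 h, with each genotype above its own 0 h level. The genotype difference at 4 h was 0.51 ± 0.06 (log2; edgeR adjusted p 1.74e-05), or 1.42-fold (95% interval 1.31 to 1.55), against 0.09 ± 0.06 at 0 h (0.544). It rose 2.03-fold (1.87 to 2.20) in WT and 1.53-fold (1.41 to 1.66) in KO, and these changes differed by 0.41 ± 0.08 on the log2 scale (edgeR adjusted p 0.00208).

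*Pde4a* (chromosome 9, 21165714 to 21213248) went the other way. It was at 16.1, 17.0 and 19.8 CPM in WT 0 h and at 19.0, 21.9 and 18.6 CPM in KO 0 h. In cultured cells it was at 10.2, 12.5 and 10.9 CPM in WT and at 15.02, 12.9 and 17.8 CPM in KO. The WT 4 h libraries were the lowest of the 12. The gene fell in WT culture (log2 -0.66 ± 0.15, edgeR adjusted p 0.00174). The KO change was -0.38 ± 0.15 and was not called (edgeR adjusted p 0.0667), though it was with only the KO groups in the fit (0.0416) and without KO 4 h replicate 3 (0.0342). The changes in the 2 genotypes differed by -0.28 (95% interval -0.72 to 0.16; edgeR adjusted p 0.553). At 4 h the genotype difference of -0.44 ± 0.16 was not called (edgeR adjusted p 0.0973), with no overlap between the libraries, and at 0 h it was -0.17 ± 0.14 (0.678). Within the same libraries, *Pde4d* held 0.5 to 0.66 reads for each *Pde4a* read at 0 h, 0.816 to 0.954 in KO 4 h and 4.33 to 5.11 in WT 4 h.

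*Pde7a* (chromosome 3, 19223108 to 19311322, minus strand) encodes a high-affinity cAMP-specific phosphodiesterase that is insensitive to rolipram and known from lymphocytes. It was at 295, 275.4 and 275.5 CPM in WT 0 h and at 252, 250.4 and 259.8 CPM in KO 0 h. Following culture it was at 185, 229 and 212 CPM in WT and at 257, 258 and 237 CPM in KO. WT libraries were thus above KO libraries at 0 h and below them at 4 h. At 0 h the difference was 0.14 ± 0.05 (log2) and was not called (edgeR adjusted p 0.236). At 4 h it was -0.26 ± 0.07 and was called (0.0317), but not without WT 4 h replicate 1 (-0.19, edgeR adjusted p 0.08), WT 4 h replicate 3 (-0.27, 0.0711), KO 4 h replicate 1 (-0.25, 0.122) or KO 4 h replicate 2 (-0.24, 0.134). *Pde7a* fell in WT culture (-0.43 ± 0.07, edgeR adjusted p 2.52e-05), and in KO culture its change was -0.02 (95% interval -0.16 to 0.12; 0.879). The difference between these changes was -0.41 ± 0.09 (edgeR adjusted p 0.00752).

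*Pde8a* (chromosome 7, 81213596 to 81334533) encodes a cAMP-specific phosphodiesterase that the broad inhibitor IBMX does not block. It was at 10.1, 6.05 and 8.40 CPM in WT 0 h and at 7.58, 5.93 and 6.88 CPM in KO 0 h. At 4 h it was at 26.3, 25.6 and 27.8 CPM in WT and at 12.8, 13.4 and 12.4 CPM in KO. The 0 h groups overlapped, and at 4 h the WT libraries lay close together above the KO libraries. The genotype difference was 0.26 ± 0.23 (log2) at 0 h (edgeR adjusted p 0.705) and 1.05 ± 0.12 at 4 h (1.99e-05), or 2.07-fold (95% interval 1.74 to 2.47). The gene rose 3.24-fold (2.58 to 4.08) in WT culture and 1.88-fold (1.45 to 2.43) in KO culture. The difference of 0.79 ± 0.24 between these changes missed the threshold (edgeR adjusted p 0.0571) and passed it without WT 0 h replicate 1 (0.95, edgeR adjusted p 0.0154). At 40 to 94 reads per 0 h library it was counted with less precision than the other members at that time.

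**Figure D2:**
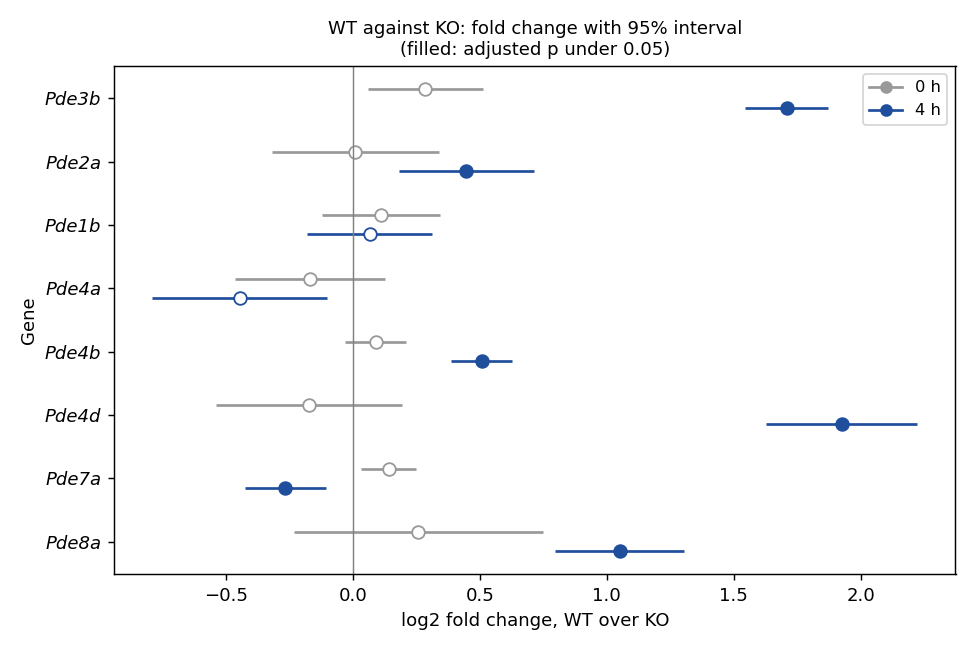
The horizontal axis is the log2 fold change of WT over KO for each gene at 0 h (grey) and at 4 h (blue), with the 95% interval as a line; filled points had an edgeR adjusted p under 0.05. All 0 h points are open and lie between -0.17 and 0.29, while 5 of the 4 h points are filled to the right of 0 and 1, *Pde7a*, to its left.

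**Figure D3:**
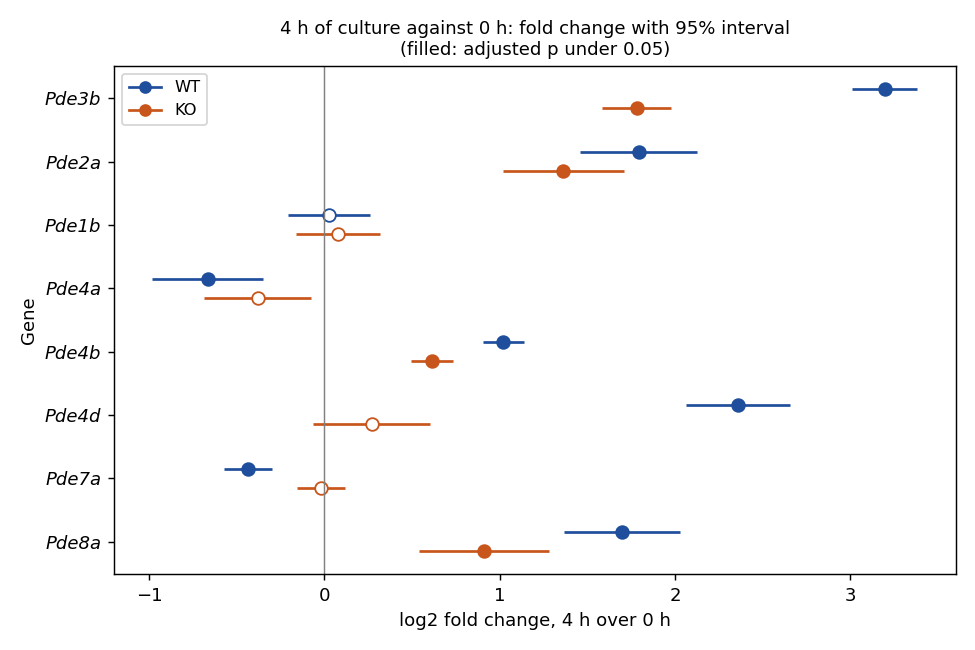
The horizontal axis is the log2 fold change of 4 h over 0 h for each gene in WT (blue) and KO (orange), with the 95% interval as a line; filled points had an edgeR adjusted p under 0.05. The intervals of the genotypes lie apart for *Pde3b*, *Pde4b*, *Pde4d* and *Pde7a*, which have a called interaction, and for *Pde8a*, which missed that threshold; they cross for *Pde2a*, *Pde1b* and *Pde4a*.

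Levels of different genes were compared only as CPM per kb of exon (union of the annotated exons). *Pde2a* shares 64.3% of its exonic bases with *Gm45837*, so its level and rank are uncertain, and with them the sum and the shares. The summed length-scaled level of the 8 genes was 91.95 ± 4.46 CPM per kb for WT and 84.8 ± 0.50 for KO at 0 h, and 185 ± 4.85 for WT and 124 ± 1.52 for KO at 4 h (SD, n = 3). In WT 0 h libraries *Pde7a* was first with 36.4 CPM per kb and *Pde4b* second with 30.6. They were followed by *Pde2a* (8.46), *Pde1b* (6.05), *Pde3b* (5.26), *Pde4a* (2.31), *Pde8a* (2.03) and *Pde4d* (0.846). In that order *Pde2a* and *Pde1b*, *Pde1b* and *Pde3b*, and *Pde4a* and *Pde8a* were not separated beyond the spread of the libraries. KO 0 h libraries gave the same order of means, again with *Pde7a* (32.8) above *Pde4b* (28.6).

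After culture the order changed. In WT 4 h libraries the length-scaled level was 62.1 CPM per kb for *Pde4b*, 48.2 for *Pde3b*, 29.2 for *Pde2a* and 26.9 for *Pde7a*, the last 2 not separated beyond their spread. *Pde8a* (6.58) and *Pde1b* (6.12) were not separated either, and *Pde4d* (4.33) and *Pde4a* (1.46) came last. In KO 4 h libraries *Pde4b* (43.7) led *Pde7a* (32.4), *Pde2a* (21.3), *Pde3b* (14.7), *Pde1b* (5.88), *Pde8a* (3.18), *Pde4a* (1.99) and *Pde4d* (1.147), with no overlap between neighbours. The share of the summed level held by *Pde3b* was 5.70% ± 0.36 for WT and 5.07% ± 0.57 for KO at 0 h, then 26.0% ± 0.84 for WT and 11.8% ± 1.13 for KO at 4 h (SD, n = 3). The share of *Pde7a* was 39.6% ± 0.96 for WT and 38.7% ± 0.53 for KO at 0 h, then 14.6% ± 1.91 for WT and 26.0% ± 1.28 for KO at 4 h. *Pde4b* held 33.3% ± 2.11, 33.7% ± 1.29, 33.6% ± 1.76 and 35.2% ± 1.57 in the same 4 groups. The order rests on the length used. With the longest transcript, *Pde4b* (75.1 CPM per kb) led *Pde7a* (44.8) in WT 0 h too, and *Pde4d* (12.4) passed *Pde1b* (7.84) and *Pde8a* (6.996) in WT 4 h. By that length the 0 h mean of *Pde4d* was above that of *Pde8a* in WT (2.41 and 2.16) and in KO (2.70 and 1.79). In KO 4 h, *Pde8a* (3.38), *Pde4a* (3.28) and *Pde4d* (3.27) then overlapped. The reads of *Pde4b* for each read of *Pde7a*, which need no length, were 1.09 to 1.26 over the 6 libraries at 0 h, 1.73 to 2.03 in KO 4 h and 2.89 to 3.44 in WT 4 h.

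**Figure D4:**
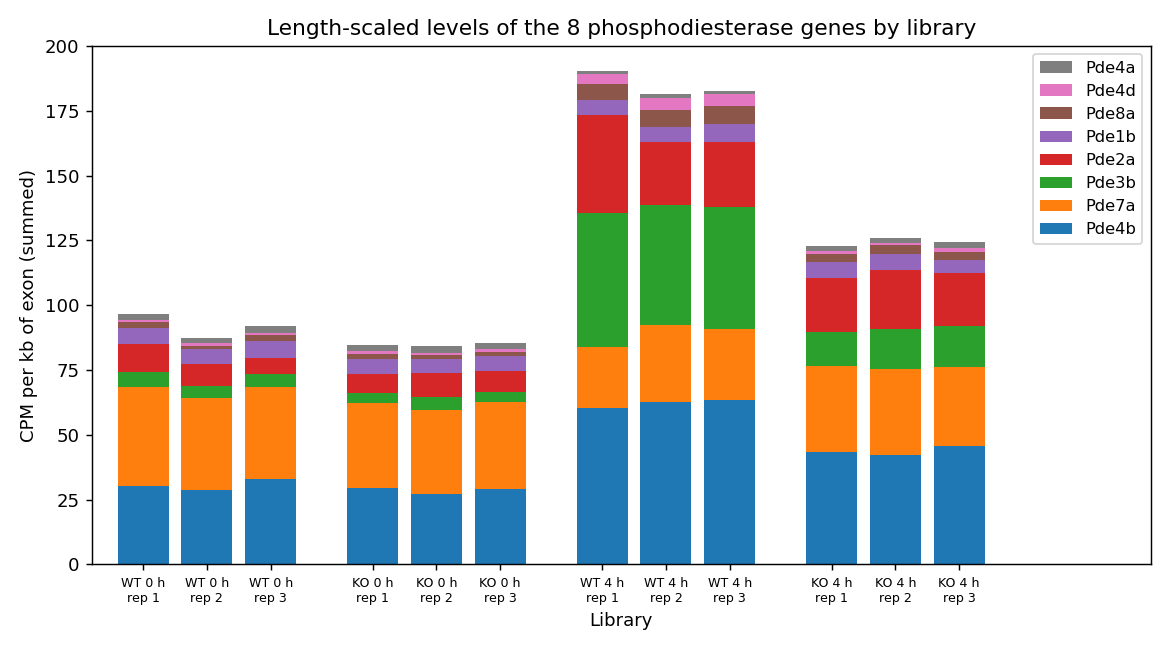
Each bar is 1 library, grouped by genotype and time, and stacks the levels of the 8 genes in CPM per kb of exon (vertical axis from 0). The WT 4 h bars average 185 CPM per kb against 124 in KO 4 h, and the green *Pde3b* segment holds 26.0% of them against 11.8% in KO 4 h.

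Of 16 other phosphodiesterase genes listed, 10 had a row in the tables used here. At 0 h, 4 were tested and 0 were called (0 at an unadjusted p under 0.05 and 0 by DESeq2). At 4 h, 1 of 5 tested was called higher in WT, where 5.22% of all genes tested were. This was *Pde7b*, which encodes the other cAMP-specific PDE7 enzyme. It was counted at 13, 11 and 3 reads in WT 0 h and at 3, 5 and 0 reads in KO 0 h. In cultured cells it was at 41, 57 and 60 reads in WT and at 10, 9 and 17 reads in KO, so the WT libraries at 4 h were above all others. Its genotype difference at 4 h was 2.21 ± 0.32 (log2; edgeR adjusted p 2.02e-04). It rose in WT culture by 2.91 ± 0.46 (edgeR adjusted p 3.76e-05) and in KO culture by 2.04 ± 0.69 (0.035), the latter call being lost without KO 0 h replicate 1 or 3 or KO 4 h replicate 1 or 3 (edgeR adjusted p 0.0558 to 0.15). *Pde6b*, a gene of the photoreceptor phosphodiesterase, was lower after WT culture (-1.78 ± 0.46, edgeR adjusted p 0.00481) at only 3 to 23 reads a library in WT. For the interaction, 0 of 7 tested were called, with 0 at an unadjusted p under 0.05 and 0 by DESeq2. *Pde7b* thus differed between the genotypes at 4 h, whereas its interaction of 0.87 had a 95% interval from -1.11 to 2.86.

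Of 12 listed cAMP makers (Gαs, Gαolf and the adenylyl cyclases), 5 were tested in each comparison. At 0 h 0 were called, with 1 at an unadjusted p under 0.05 and 0 by DESeq2. At 4 h 1 was called lower in WT, where 5.67% of all genes tested were. This was *Adcy7*, the adenylyl cyclase best known from blood cells. It was at 176, 199 and 187 CPM in WT 4 h and at 248, 231 and 225 CPM in KO 4 h, a log2 difference of -0.33 ± 0.06 (edgeR adjusted p 0.00327). *Adcy7* fell in WT culture by 0.39 on the log2 scale (edgeR adjusted p 4.84e-05) and had a called interaction of -0.42 ± 0.09 (0.00458). *Gnas* was lower after WT culture (-0.14 ± 0.05, edgeR adjusted p 0.039) and *Gnal* after KO culture (-0.33 ± 0.12, 0.0459), and neither call held with library totals only (edgeR adjusted p 0.663 and 0.149). The *Gnas* call was also lost without WT 0 h replicate 1 or 3, KO 0 h replicate 1 or WT 4 h replicate 2 or 3 (edgeR adjusted p 0.0564 to 0.138), and the *Gnal* call without WT 0 h replicate 3, KO 0 h replicate 1 or 2 or KO 4 h replicate 2 or 3 (0.0523 to 0.19), and with replicate number as a block (0.0545).

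Among 19 listed cAMP effectors, 15 were tested. *Atf1*, a CREB family factor, was the only one called at 0 h (0.54 ± 0.11, edgeR adjusted p 0.0286), and DESeq2 called 0. That call was lost without WT 0 h replicate 2 or 3 or KO 0 h replicate 1 (edgeR adjusted p 0.0812 to 0.121). At 4 h, 3 were higher in WT and 2 were lower, where 5.22% and 5.67% of all genes tested were. *Atf1* was then at -0.35 ± 0.11 and not called (edgeR adjusted p 0.0552), but was called lower in WT by DESeq2 (adjusted p 0.0338), with replicate number as a block (edgeR adjusted p 0.00957), and without WT 4 h replicate 3 (0.00554) or KO 4 h replicate 1 (0.041). *Crem*, which encodes the cAMP-induced repressor ICER among other isoforms, was at 121, 126 and 164 CPM in WT 4 h and at 15.1, 16.9 and 18.2 CPM in KO 4 h, a log2 difference of 3.04 ± 0.12 (edgeR adjusted p 3.37e-10). *Prkar1a*, a regulatory subunit of PKA, differed by 0.40 ± 0.07 and *Crtc2*, a CREB coactivator, by 0.23 ± 0.06. *Rapgef3* (-1.26 ± 0.31) and *Rapgef4* (-0.73 ± 0.11), the genes of EPAC1 and EPAC2, were lower in WT, with edgeR adjusted p-values of 0.0152 and 2.84e-04. The *Rapgef3* call was lost without WT 4 h replicate 2 or 3 or KO 4 h replicate 2 or 3 (edgeR adjusted p 0.0504 to 0.0677). The *Crtc2* call was lost with library totals only (0.0544), with replicate number as a block (0.0508), and without WT 4 h replicate 3 or KO 4 h replicate 1, 2 or 3 (0.0511 to 0.108).

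Culture raised 4 and lowered 7 of the 15 effectors in WT cells, where 15.1% of all genes rose and 18.0% fell. In KO cells it raised 2 and lowered 2, which is near the shares of all genes there (10.3% and 13.0%). The largest changes in WT were in *Crem* (3.05), *Rapgef3* (-1.93), *Pkib* (-0.98), *Atf1* (-0.87) and *Prkar1a* (0.72). In KO they were in *Pkib* (-0.75), a PKA inhibitor gene, *Crtc1* (0.52), *Prkar1a* (0.38) and *Crtc2* (-0.34). Of 20 listed symbols of phosphodiesterase partners (anchoring proteins, arrestins and subunits of the phosphoinositide 3-kinase γ complex), 16 were tested. At 0 h 0 were called (0 at an unadjusted p under 0.05 and 0 by DESeq2). At 4 h 1 was higher in WT, *Pik3r5* (0.45 ± 0.09, edgeR adjusted p 0.00431), and 1 higher in KO, *Pik3cg* (-0.39 ± 0.08, 0.00303). These counts are near the shares of all genes tested at 4 h (5.22% and 5.67%). In WT culture 1 rose and 5 fell, the largest changes being in *Pik3cg* (-0.80) and *Arrb1* (-0.55), and in KO culture 2 rose and 2 fell, led by *Pik3cg* (-0.48) and *Pde4dip* (0.36), again near the shares of all genes in KO culture. Their interaction was called in 0 of 16, with 3 at an unadjusted p under 0.05 and 1 by DESeq2. Of 13 listed symbols of genes for making or sensing cGMP, older and newer names together, 2 had a row (*Npr1* and *Npr2*) and 0 passed the filter, so none was tested.

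The genes whose levels were most like those of each member were found by the Pearson r of log2 CPM over the 12 libraries among 11572 genes. This is a description, since the 12 points fall into the same 4 groups for every gene. *Pde3b* was most like *Zfp369* (0.995), *Eif2ak3* (0.992) and *Dgkd* (0.989), and *Pde4b* was most like *Pde3b* (0.988), *Eif2ak3* (0.987) and *Bcl2l11* (0.987). For *Pde8a* the first were *Bcl2l11* (0.984), *Dnajc12* (0.981) and *Atl3* (0.979). *Pde4d*, which was high in WT 4 h libraries alone, was most like *Stat4* (0.987), *Cyth1* (0.987) and *Inpp5d* (0.980). *Pde2a* was most like *Tgfbr2* (0.976), *Pogk* (0.973) and *Ubr2* (0.972). *Pde7a* was most like *Mtpn* (0.959), *Golga1* (0.957) and *N4bp2l2* (0.948), and *Pde4a* like *1700029J07Rik*, *Pdcd1lg2* and *Gnptab* (all 0.937). *Pde1b* had the lowest best match, *Fam50a* (0.883), followed by *Mrps5* (0.837) and *Tmem144* (0.823).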

How the data were processed

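RNA from 12 libraries of sorted follicular B cells was measured. The authors amplified RNA (NuGEN Ovation V2) and ran single-end sequencing (HiSeq2500). Reads were aligned with STAR (mm10), and HTSeq gave the number per gene. Annotation, strand setting and versions were not given in the sources used here. The authors deposited raw counts without normalization, in 1 table per time. The smallest row sum was 10 reads over 6 libraries.

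Counts were filtered (filterByExpr), scaled by TMM and tested with edgeR 4.0.16 in R 4.3.3, adjusting p over all genes tested. Genotype was tested within each time (6 libraries). Culture and interaction were tested over 12 libraries and genes in both tables. CPM of the phosphodiesterases, the pathway genes and *Gpr174* used 1 TMM scaling over all 12 libraries. Marker CPM were scaled within each time (6 libraries). Intervals are 95%. The test was run on simulated counts first. Alternatives included DESeq2 1.42.0. The replicates of a group differed beyond sampling noise (chi-square per degree of freedom 2.00 to 9.88), so all were kept. No columns were left unmapped (0).

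Named genes are the 8 members, the called genes among other phosphodiesterases, and at most the 5 with the largest changes among those called in each pathway list. The members and lists were chosen with earlier results of these data known. The depth gave a median SE (log2) of 0.117 (genotype, 0 h), 0.111 (genotype, 4 h) and 0.167 (interaction). With 3 against 3 libraries, an exact permutation test cannot give a p under 0.1, so the calls rest on edgeR's model of the counts.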

Additional observations from a re-analysis of the deposited data

Results flagged for a closer look

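The change over 4 h of culture differed between WT and KO cells, by edgeR's interaction test, in 4 of the 8 phosphodiesterase genes and in 7 genes of the pathway lists. Those 7 were 1 of 5 cAMP makers and 6 of 15 cAMP effectors tested, and 0 of 16 partners were called. Over all 11572 genes tested, 2.45% were called with the WT change above that in KO and 3.94% with it below. Values are the WT change minus the KO change on the log2 scale. Among the phosphodiesterases it was 2.09 for *Pde4d* (edgeR adjusted p 1.14e-06), 1.41 for *Pde3b* (2.08e-07), 0.41 for *Pde4b* (0.00208) and -0.41 for *Pde7a* (0.00752). Among the genes of cAMP signaling it was 3.15 for *Crem* (6.83e-10), 0.33 for *Prkar1a* (0.0338), -0.32 for *Creb1* (0.0103), -0.42 for *Adcy7* (0.00458), -0.65 for *Rapgef4* (0.0429), -0.91 for *Atf1* (0.00216) and -1.91 for *Rapgef3* (0.0291). The call was lost for *Prkar1a* without replicate 2 of WT 0 h or replicate 1 or 3 of any other group (edgeR adjusted p 0.052 to 0.117). It was lost for *Rapgef3* without replicate 2 of WT 0 h, 1 or 3 of KO 0 h, 2 or 3 of WT 4 h or any of KO 4 h (0.0523 to 0.0885). It was lost for *Rapgef4* without replicate 1 or 2 of WT 0 h, 1 or 3 of KO 0 h, 3 of WT 4 h or any of KO 4 h (0.0592 to 0.131), and in DESeq2 (adjusted p 0.161). *Pde4d*, *Pde7a*, *Crem*, *Adcy7*, *Creb1*, *Rapgef4*, *Atf1* and *Rapgef3* had a called culture change in WT cells and no called one in KO cells. In *Pde3b*, *Pde4b* and *Prkar1a* both changes were called and that in WT was larger.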

How the results depend on the processing

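Of 616 refits of the 8 genes' log2 fold changes, 603 kept their direction where called and their side of the threshold, 10 lost a call, 3 gained one and 0 of the called values changed sign. The number of the 8 genes called stayed at 0 for genotype at 0 h and at 7 for WT culture in every refit. For genotype at 4 h it was 6, and 4 to 6 when single libraries were left out. DESeq2 gave 5, as did all 4 groups in the fit; edgeR with DESeq2 size factors, library totals only and no filter gave 6. For KO culture it was 4, and 5 with only the 2 groups compared or without KO 4 h replicate 3. For the interaction it was 4, and 5 without WT 0 h replicate 1. *Pde2a* and *Pde7a* at 4 h carried all the lost calls.

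Library totals only moved the median of all genes to 0.11 in WT culture and 0.09 in KO culture (log2), so directions are relative to TMM scaling.

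With replicate number as a block (replicate block), 0, 6, 7, 4 and 4 of the 8 genes were called for genotype at 0 h, genotype at 4 h, WT culture, KO culture and the interaction, as without it. This block joined WT and KO libraries of the same number, which come from different mice. It therefore cannot show what pairing of 0 h and 4 h libraries within a genotype would change. Deviations of each library from its group mean were correlated. Between 0 h and 4 h, r was 0.07 to 0.13 for same-numbered WT libraries and -0.10 to -0.004 for those of unlike number. In KO, r was -0.04, 0.15 and 0.15 for the same number and -0.18 to 0.05 for unlike numbers. Between genotypes, same-numbered libraries had r from -0.10 to 0.07. The labels do not say that a number marks 1 mouse, so the numbers were not taken as pairing. A fit paired within genotype was not run, so the culture and interaction tests leave out any such pairing.

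With the longest transcript in place of the union of exons, *Pde4b* held 48.3% of the summed level in WT and 48.6% in KO at 0 h, and 47.0% and 49.7% at 4 h. In the same order *Pde7a* held 28.8%, 27.9%, 10.2% and 18.4%, and *Pde3b* 4.67%, 4.13%, 20.6% and 9.44%. Depth limits mainly *Pde8a* at 0 h and *Pde7b* and *Pde6b*, which have few reads. Among the lists, cAMP effectors called at 0 h went from 1 to 0 in DESeq2, partners called at 4 h from 2 to 4 and cAMP makers called in WT culture from 2 to 1 with library totals only; the cause was not tested.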
